A study of Mus musculus with 8 samples.

Results

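The 10 heat shock and chaperone genes Hspa1a, Hspa1b, Hspa8, Hsph1, Bag3, Dnajb1, Hsp90aa1, Hspb1, Hspd1 and Hspe1 were taken by symbol from a table of 23356 genes, and each was found once. They were followed through 8 RNA sequencing libraries of mouse sciatic nerve, with 2 libraries for each of 4 genotypes. The strain of all mice was F1 C57BL/6;FVB/N and their age postnatal day 30. HA-NRG1 type III/+:Q215X/+ mice, called the double genotype below, carried both the transgene and the Q215X allele. Q215X/+ mice carried 1 copy of the Q215X allele. HA-NRG1 type III/+ mice carried a tagged transgene that encodes neuregulin 1 type III, and wild type (WT) mice carried neither. The promoter that drives the transgene is not stated by the sources used here. No label says that both libraries of a genotype are from different animals, so each p-value reflects just the spread of these 8 libraries, and that spread may be technical. Each genotype has 1 table column ending in 0 and 1 ending in 1, referred to as set 0 and set 1; what the endings stand for is not labelled.

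Heat shock proteins keep other proteins folded and carry damaged ones to repair or breakdown. When unfolded protein builds up, heat shock factor 1 leaves its chaperone partners, forms trimers and binds heat shock elements, which are repeats of GAA in alternating orientation, before the genes of HSP70, HSP110, HSP40, small heat shock proteins and BAG3. In peripheral nerve this network is of medical interest because mutations of human HSPB1 cause inherited axonal neuropathy. The members divide by role into the HSP70 proteins (Hspa1a, Hspa1b, Hspa8), their partners (Hsph1, Bag3, Dnajb1), HSP90 (Hsp90aa1), a small heat shock protein (Hspb1) and the chaperonin pair Hspd1 and Hspe1. The name cytosolic heat shock proteins holds for 8 of the 10, because HSP60 (Hspd1) and HSP10 (Hspe1) work in the mitochondrial matrix.

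Total FPKM (fragments scaled to gene length and to the library's total) ran from 443733 to 530901 per library, the number of reads is unknown, and no counting interval can be given. Prx, which encodes periaxin of myelinating Schwann cells, stood at 1194 to 1485 FPKM in all 8 libraries. Nrg1, the gene of the transgene's product, was below 1 FPKM in all 8, at 0.498 and 0.358 in the double genotype, 0.326 and 0.190 in Q215X/+, 0.393 and 0.312 in HA-NRG1 type III/+, and 0.204 and 0.164 in WT. Summed over 12 skeletal muscle markers, the Q215X/+ library of set 1 held 1239.8 FPKM, against 8.89 to 101 in the other 7 libraries. It also held the highest sum of 5 red blood cell markers, 1279 FPKM, against 49.1 to 599, and of 6 adipocyte markers, 1348 FPKM, against 454 to 952. By Xist and Ddx3y, both libraries of the double genotype and of WT read as female, both of Q215X/+ as male, and those of HA-NRG1 type III/+ as male in set 0 and female in set 1. Sex and genotype therefore cannot be told apart in the comparisons of Q215X/+ with WT and of the double genotype with Q215X/+.

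Hspa1a (chr17:34969190-34972156) and Hspa1b (chr17:34956436-34959238) lie on the minus strand of build mm10 in GENCODE M21, and both encode the stress-inducible HSP70 protein. Their coding sequences were 99.4% identical, with 8 mismatches and 3 gap bases, while the transcripts after the stop were 44.1% identical. Reads from the coding part can fall to either gene, so the division between the pair is uncertain and their sum is given too. Over the 250 bases before their starts the pair differed at 3. The 200 bases before each start, from RefSeq promoter windows on GRCm38.p6, differ at 1 base and are shown because the pair is the classical heat shock reporter; capitals mark GAA units that face each other 2 bases apart.
Hspa1a, chr17:34972157-34972356, minus strand: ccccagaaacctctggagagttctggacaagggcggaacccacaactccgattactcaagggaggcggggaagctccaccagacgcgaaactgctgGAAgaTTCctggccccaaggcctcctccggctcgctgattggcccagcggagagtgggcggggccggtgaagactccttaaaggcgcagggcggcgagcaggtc
Hspa1b, chr17:34959239-34959438, minus strand: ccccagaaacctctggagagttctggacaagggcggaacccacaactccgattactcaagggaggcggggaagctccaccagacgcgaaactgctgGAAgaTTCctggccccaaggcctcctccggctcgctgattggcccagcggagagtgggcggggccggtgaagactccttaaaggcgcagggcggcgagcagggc

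The pair of facing units was searched as GAANNTTC and TTCNNGAA, each of which reads the same on both strands, in windows of 250 bases before to 50 after a start. RefSeq windows were matched for 8 of the 10 members, 11 windows in all. Of all 32851 windows of that length, 15.1% held at least 1 such pair, 0.603% held a run of 3 alternating units and 0.0244%, or 8 windows, a run of 4. Hspd1 (chr1:55077835-55088243, minus strand) and Hspe1 (chr1:55088132-55091307, plus strand) lie head to head and overlap, and a run of 4 lies before the start of Hspe1 and before 1 of the RefSeq starts of Hspd1. Hspb1 (chr5:135887919-135889563, plus strand) has 2 pairs, and the upstream pair of Hsph1 (chr5:149614287-149636376, minus strand) lies close to its start, with a run of 3 after it. These stretches of 30 bases are shown because they hold the units in the members' promoters, with the units in capitals.
Hspe1, chr1:55088053-55088082, plus strand: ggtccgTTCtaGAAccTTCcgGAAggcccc
Hspb1, chr5:135887801-135887830, plus strand: aGAAgtTTCcagatgggggcaGAAccTTCc
Hsph1, chr5:149636351-149636380, minus strand: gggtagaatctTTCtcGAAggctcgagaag
A match is a description of letters, not of binding. Only exact units were searched, so elements with altered units were not counted. The window of Bag3 (chr7:128523616-128546981, plus strand) held 1 pair, after the start, and those of Dnajb1 (chr8:83608193-83612653, plus strand) held none of these letters. Hspa8 (chr9:40800984-40810087, plus strand) and Hsp90aa1 (chr12:110690605-110702728, minus strand) complete the set.

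All 10 members averaged 1 FPKM or more across the libraries, the filter for testing, which 12530 genes passed in all. FPKM is scaled to gene length, so levels can be set side by side. Hspa8, the constitutive HSP70 of the cytosol, was highest at 358 ± 49.9 FPKM (SD over 8 libraries), above 98.7% of tested genes. Hsp90aa1, the inducible HSP90, followed at 78.7 ± 16.0 FPKM, Hspe1 at 57.4 ± 11.2 and Hspd1 at 45.9 ± 2.98. Hspb1, which encodes HSP27 and protects the cytoskeleton, had 33.2 ± 3.88 FPKM. The partners of HSP70 were lower. Dnajb1, an HSP40 that delivers clients and starts ATP hydrolysis, had 20.8 ± 3.59 FPKM, Bag3, a nucleotide exchange factor that routes clients to autophagy, 17.7 ± 3.10, and Hsph1, the HSP110 exchange factor, 15.4 ± 3.58. The inducible HSP70 genes were lowest, Hspa1b at 6.15 ± 2.15 and Hspa1a at 3.71 ± 1.60 FPKM. The ranges over libraries of neighbours in this order overlapped except between Hspa8 and Hsp90aa1, between Hspd1 and Hspb1, and between Hsph1 and Hspa1b. Hspa8 overlaps 3 snoRNA genes of the same strand. Hspd1 has 5 named pseudogenes and Hspe1 has 6. Hspa1a overlaps a gene on the opposite strand, and Bag3 overlaps another gene on the same strand. How reads were divided there is not stated by the sources used here.

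**Figure D1:**
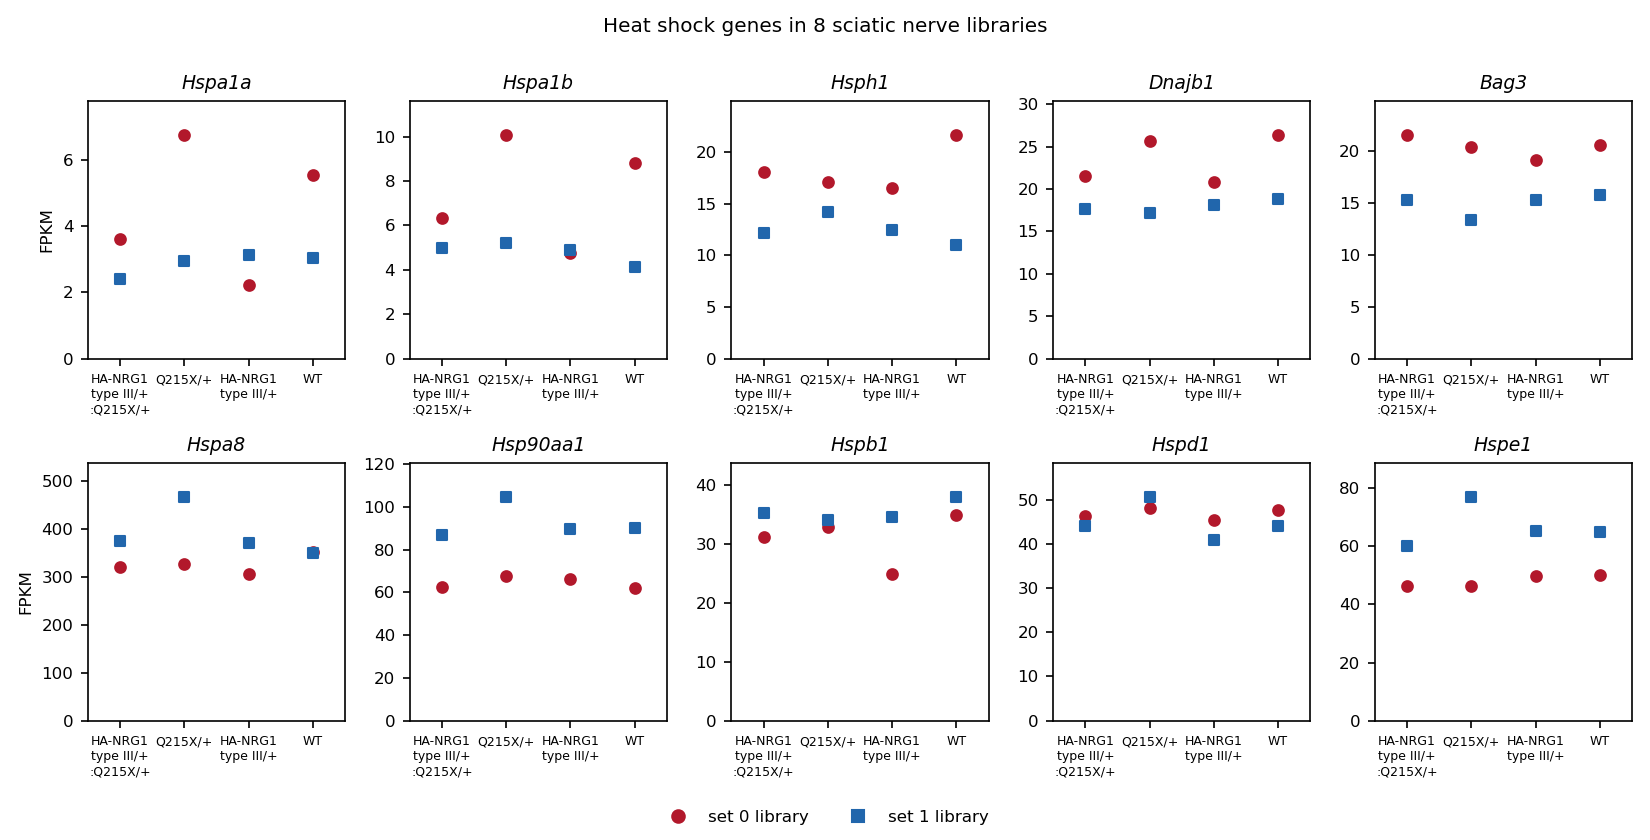
FPKM of the 10 members (y axis, each panel from 0) in the 4 genotypes (x axis), with a red circle for the set 0 library and a blue square for the set 1 library. Genotypes overlapped for most members, while the red points lay above the blue ones in every genotype for Hsph1, Dnajb1 and Bag3, and below them for Hsp90aa1, Hspb1 and Hspe1.

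Setting Q215X/+ against WT addresses the effect of the Q215X allele on the nerve. No member passed the test: limma called 0 of 10 in either direction (Benjamini-Hochberg adjusted p under 0.05), and 0 of 10 had an unadjusted limma p under 0.05. Over all genes 0.00798%, a single gene, were called and 2.04% had such an unadjusted p. Hspa1a had 6.76 and 2.94 FPKM in Q215X/+ (set 0, then set 1), against 5.55 and 3.04 in WT. In both genotypes the set 0 library was the higher one, and the groups overlapped. The log2 difference, on the scale of log2(FPKM + 1) used throughout, was 0.10 (SE 0.38), and such a value understates the change of low genes. Hspa1b had 10.1 and 5.20 FPKM in Q215X/+, against 8.81 and 4.15 in WT, a difference of 0.22 (SE 0.37) and the highest of the members. Hspa8 had 326 and 467 FPKM in Q215X/+, against 352 and 349 in WT. Its Q215X/+ libraries lay on both sides of WT. Hsp90aa1 had 67.4 and 105 FPKM in Q215X/+, against 62.1 and 89.9 in WT. Hspe1 had 46.2 and 77.0 FPKM in Q215X/+, against 50.1 and 64.9 in WT. The highest values of Hspa8, Hsp90aa1 and Hspe1 over all 8 libraries thus came from the Q215X/+ library of set 1, which also held the highest muscle, red blood cell and adipocyte sums; the part of those cells in these values was not tested. In bulk tissue, fewer cells of a type and less RNA per cell cannot be told apart.

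The groups of Q215X/+ and WT did not overlap for 2 of the 10 members, against 18.9% of all tested genes. Hspd1 had 48.2 and 50.6 FPKM in Q215X/+, against 47.6 and 43.9 in WT (log2 0.11, SE 0.09). Hspb1 had 32.9 and 34.1 FPKM in Q215X/+, against 35.0 and 38.0 in WT (log2 −0.12, SE 0.16). The first was the higher in Q215X/+ and the second the lower, both by small amounts. The highest Hspd1 value, 50.6 FPKM, again came from the Q215X/+ library of set 1. The median over the 10 members was 0.08, with 7 above 0 and 3 below, and that over all genes was −0.01. Without the set 0 library of Q215X/+ the median of the members was −0.107, and without the set 1 library of WT it was −0.152. These fits had no set term, so the sets were unevenly represented and the difference between them entered the values. The direction of the median is thus not settled by them. With the set as a block, Hsp90aa1 had an unadjusted limma p of 0.0383, the smallest of the members, and an adjusted p of 0.654. In that fit 929 of 12530 genes had an unadjusted p under 0.05.

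Setting HA-NRG1 type III/+ against WT addresses the effect of the transgene without the Q215X allele. Again limma called 0 of 10 members, with 0 of 10 at an unadjusted p under 0.05, while 0.0638% of all genes (8) were called and 6.9% had such an unadjusted p. Hspa1a had 2.21 and 3.13 FPKM in HA-NRG1 type III/+, against 5.55 and 3.04 in WT. Its log2 difference of −0.50 (SE 0.38) was the furthest from 0 of all members in all 5 genotype comparisons. It came from set 0, where it was −1.03, while in set 1 it was 0.03. Hspa1b had 4.75 and 4.91 FPKM in HA-NRG1 type III/+, against 8.81 and 4.15 in WT, with −0.77 in set 0 and 0.20 in set 1. Both genes thus had WT libraries above and below HA-NRG1 type III/+ ones, and the transgenic library of set 0 is the one that reads as male. With 1 library of each sex in this genotype, sex and set cannot be told apart in it.

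Hspb1 was the only member whose groups did not overlap in this comparison, against 30.5% of all genes. It had 25.0 and 34.6 FPKM in HA-NRG1 type III/+, against 35.0 and 38.0 in WT. The lower value of WT lay just above the higher of the transgenic pair. The log2 difference was −0.30 (SE 0.16, limma adjusted p = 0.852), with −0.47 in set 0 and −0.13 in set 1. With the set as a block its unadjusted limma p was 0.0218 and its adjusted p 0.202. That fit called 2.11% of all genes and 0 members, and 2194 of 12530 genes had an unadjusted p under 0.05. Of the rest, Dnajb1 had 20.9 and 18.1 FPKM in HA-NRG1 type III/+, against 26.4 and 18.8 in WT (log2 −0.19, SE 0.23). Hsph1 had 16.5 and 12.5 FPKM in HA-NRG1 type III/+, against 21.7 and 11.1 in WT (log2 −0.10, SE 0.33). For both genes the 2 genotypes overlapped. The median of the members was −0.09, with 9 below 0 and 1 above, beside −0.01 over all genes. It ran from −0.247 to −0.04 when each library was left out in turn, in fits without a set term. The difference between the sets can enter these values. Markers of neurons and axons moved with this comparison. Summed over Nefh, Nefm, Nefl and Prph, HA-NRG1 type III/+ held 6.57 and 9.81 FPKM, against 15.7 and 25.0 in WT. The log2 differences of these genes had a median of −0.94, 4 of 4 were below 0 and had an unadjusted limma p under 0.05, and limma called 3 of them with the set as a block and 0 without it. The myelinating Schwann cell markers Mbp, Prx, Pmp22 and Egr2 were below 0 as well, with 0 of them called. The part of these cells in the members' values was not tested.

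Setting the double genotype against Q215X/+ addresses the same effect in the presence of the Q215X allele. Limma called 0 of 10 members, with 0 of 10 at an unadjusted p under 0.05, beside 0.0399% (5) and 6.58% of all genes. Hspa1a had 3.60 and 2.42 FPKM in the double genotype, against 6.76 and 2.94 in Q215X/+, and Hspa1b had 6.35 and 4.96 FPKM, against 10.1 and 5.20. Both were below Q215X/+ within each set, but over both sets the genotypes overlapped. The log2 differences were −0.48 (SE 0.38) for Hspa1a and −0.32 (SE 0.37) for Hspa1b. Summed, the pair had 9.96 and 7.38 FPKM in the double genotype, against 16.8 and 8.13 in Q215X/+, and 6.96 and 8.04 in HA-NRG1 type III/+, against 14.4 and 7.19 in WT. Hspa1a made up 31.8% to 42.3% of that sum over the 8 libraries. The set 0 libraries of Q215X/+ and WT stood apart from the other 6, and these 2 differ in the sex read from them. Why they stood apart was not tested.

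Hspd1 was the only member whose values in the double genotype and Q215X/+ did not overlap, against 29.9% of all genes, at 46.4 and 44.0 FPKM in the double genotype, against 48.2 and 50.6 in Q215X/+ (log2 −0.13, SE 0.09), where 50.6 is again the library with the high muscle, red blood cell and adipocyte sums. Hsp90aa1 had 62.5 and 86.9 FPKM in the double genotype, against 67.4 and 105 in Q215X/+. It was lower within each set, with an unadjusted limma p of 0.0256 and an adjusted p of 0.238 with the set as a block. That fit called 1.72% of all genes and 0 members, while 1968 of 12530 genes had an unadjusted p under 0.05. Hspa8 had 321 and 375 FPKM in the double genotype, against 326 and 467 in Q215X/+, and Hspe1 had 46.2 and 60.2 FPKM, against 46.2 and 77.0. For these 3 genes the wider gap was in set 1, where the Q215X/+ library with the high muscle sum stands. The median of the members was −0.15, with 9 below 0, beside −0.01 over all genes. Without the set 0 library of Q215X/+ it was −0.0143, in a fit without a set term, so this value also holds the difference between the sets. The same 4 neuron and axon markers summed to 7.55 and 12.0 FPKM in the double genotype, against 19.2 and 18.7 in Q215X/+, and their median difference was −0.80, with 0 of 4 called; their part in the members' values was not tested. This comparison and that of Q215X/+ with WT share the Q215X/+ libraries, so opposite signs in them are not independent.

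**Figure D2:**
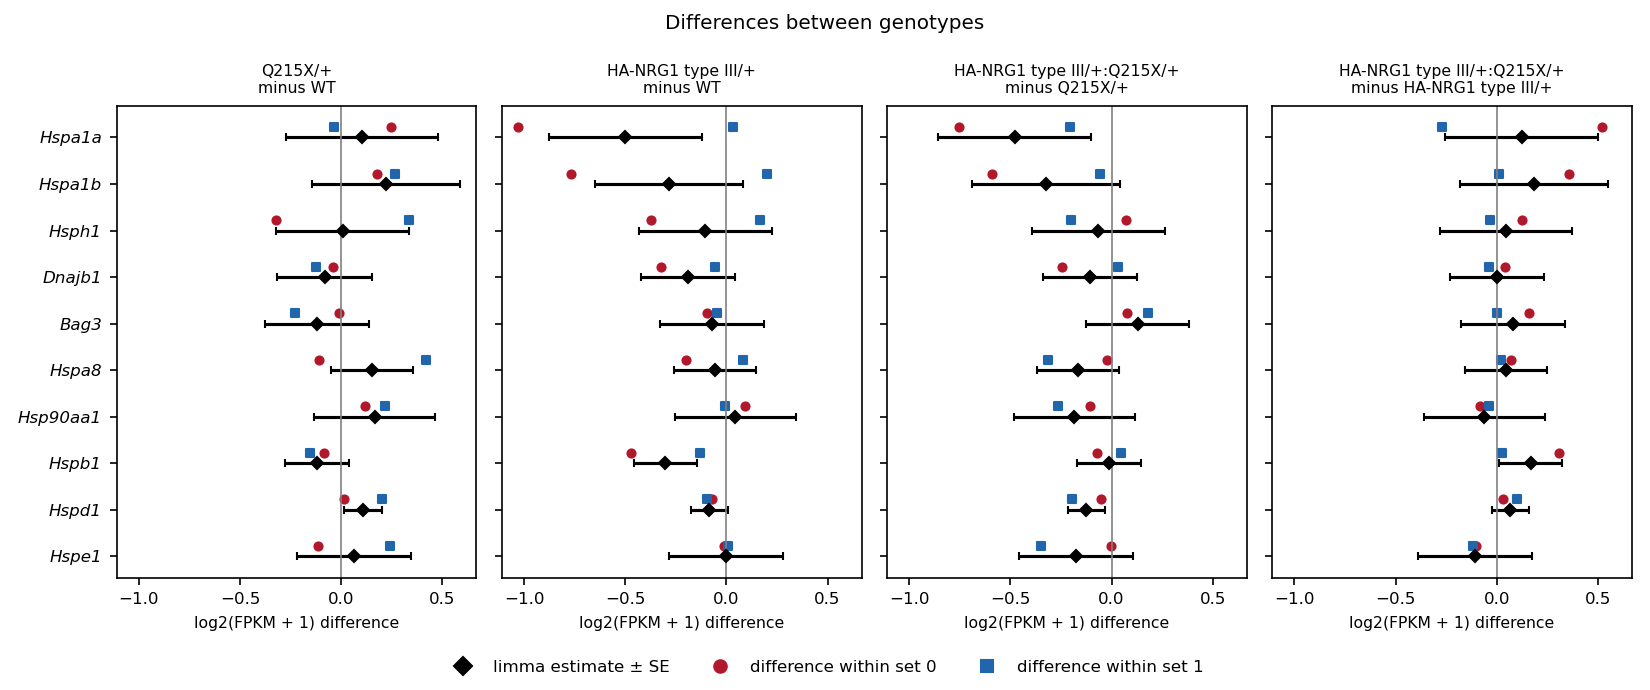
Log2(FPKM + 1) differences of the members in 4 genotype comparisons. Black diamonds and bars give the limma estimate and its SE from the fit without the set. Red circles give the difference within set 0 and blue squares that within set 1. Most bars cross 0, and for Hspa1a and Hspa1b the set 0 differences between HA-NRG1 type III/+ and WT (−1.03 and −0.77) lie far from those of set 1 (0.03 and 0.20).

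The double genotype was also set against each of the remaining groups. Against HA-NRG1 type III/+, limma called 0 of 10 members and 0.0% of all genes, of which 161 (1.28%) had an unadjusted p under 0.05, none of them a member. Hspa1b was the only member without overlap, against 19.2% of all genes, at 6.35 and 4.96 FPKM in the double genotype, against 4.75 and 4.91 in HA-NRG1 type III/+. The lower value of the double genotype exceeded the higher one of HA-NRG1 type III/+ by little, and the log2 difference was 0.18 (SE 0.37). Hspb1 had 31.2 and 35.2 FPKM in the double genotype, against 25.0 and 34.6 in HA-NRG1 type III/+ (log2 0.17, SE 0.16). Hspe1 had 46.2 and 60.2 FPKM in the double genotype, against 49.7 and 65.3 in HA-NRG1 type III/+ (log2 −0.11, SE 0.28). In both genes the groups overlapped. Against WT, limma called 0 of 10 members and 0 had an unadjusted p under 0.05, beside 0.112% (14) and 7.29% of all genes. With the set as a block it called 0 members and 2.39% of all genes. All 10 members overlapped there, while 31.1% of all genes did not. Bag3 had 21.6 and 15.2 FPKM in the double genotype, against 20.6 and 15.8 in WT (log2 0.01, SE 0.26), so that the sets were parted and the genotypes were not. The interaction is the transgene's difference on the mutant background minus that on the normal one. It called 0 of 10 members and 0.00798% of all genes, and 0 members and 1.11% of all genes had an unadjusted limma p under 0.05. The interaction holds the comparison of the double genotype with Q215X/+, so it cannot be told apart from sex either. It was 0.02 (SE 0.53) for Hspa1a and 0.29 (SE 0.22) for Hspb1, the member furthest from 0. These standard errors leave room for sizeable differences, so 0 calls do not show that the genotypes are alike.

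The members that passed a test did so between the sets, across all genotypes. Bag3 stood at 21.6, 20.4, 19.2 and 20.6 FPKM in the set 0 libraries of the double genotype, Q215X/+, HA-NRG1 type III/+ and WT, against 15.2, 13.3, 15.2 and 15.8 in the set 1 libraries in the same order. Hsp90aa1 ran the other way, at 62.5, 67.4, 66.3 and 62.1 FPKM in set 0, against 86.9, 105, 89.4 and 89.9 in set 1. The sets did not overlap for either gene, and the spread between genotypes within a set was smaller than the gap between sets. The set term was fitted with genotype in the model after these differences had been seen, and the sets are not groups of the study. It called 5 of 10 members, 3 higher and 2 lower in set 0, against 35.0% of all genes, of which 12.9% were higher and 22.1% lower in set 0. At these counts the share of the members called is not far above that of all genes.

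Bag3 was higher in set 0 by 0.43 log2 units (SE 0.05, limma adjusted p = 0.00324). Dnajb1 was higher by 0.37 (SE 0.07, adjusted p = 0.00908), at 20.9 to 26.4 FPKM in set 0, against 17.2 to 18.8 in set 1. Hsph1 was higher by 0.52 (SE 0.11, adjusted p = 0.0133), at 16.5 to 21.7 FPKM in set 0, against 11.1 to 14.2 in set 1. Without a library of the double genotype, whichever it was, Hsph1 had a difference of 0.51 and missed the threshold. Both omissions give the same estimate, since the lone library left adds nothing to the set term. All 3 are partners of HSP70, and in each the lowest set 0 library lay above the highest set 1 library. Hsp90aa1 was lower in set 0 by 0.51 log2 units (difference −0.51, SE 0.04, adjusted p = 0.00161). Hspe1 differed by −0.46 (SE 0.07, adjusted p = 0.0054), at 46.2 to 50.1 FPKM in set 0, against 60.2 to 77.0 in set 1. All 4 set 0 libraries stood above all 4 of set 1 for 3 members, against 12.2% of all genes, and below them for 2 members, against 20.1%. The direction between the sets was the same in all 4 genotypes for 6 of 10 members, against 53.4% of all genes.

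The other 5 members did not pass the test between the sets. Hspa1b had 6.35, 10.1, 4.75 and 8.81 FPKM in set 0, against 4.96, 5.20, 4.91 and 4.15 in set 1, in the order double genotype, Q215X/+, HA-NRG1 type III/+ and WT (log2 0.51, SE 0.16, adjusted p = 0.0557). Hspa1a had 3.60, 6.76, 2.21 and 5.55 FPKM in set 0, against 2.42, 2.94, 3.13 and 3.04 in set 1 (log2 0.44, SE 0.21, adjusted p = 0.147). Both were higher in set 0 in 3 of 4 genotypes, with HA-NRG1 type III/+, whose set 0 library reads as male, as the exception. Without either library of that genotype the set differences were 0.70 for Hspa1a and 0.69 for Hspa1b. Omitting the set 0 or the set 1 library gives the same estimate, so this is a single check. Hspa8 had a log2 difference of −0.25 (SE 0.08, limma adjusted p = 0.0629), and of −0.34 without either library of WT, again a single check. Hspb1 had −0.20 (SE 0.07, limma adjusted p = 0.0699). Hspd1 was the steadiest, at 45.3 to 48.2 FPKM in set 0, against 41.0 to 50.6 in set 1 (log2 0.07, SE 0.05, adjusted p = 0.308). It overlaps Hspe1 head to head and shares its promoter element shown above, yet Hspe1 stood lower in set 0 in 4 of 4 genotypes and Hspd1 in 1 of 4. A test of the difference between these 2 genes was not made.

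**Figure D3:**
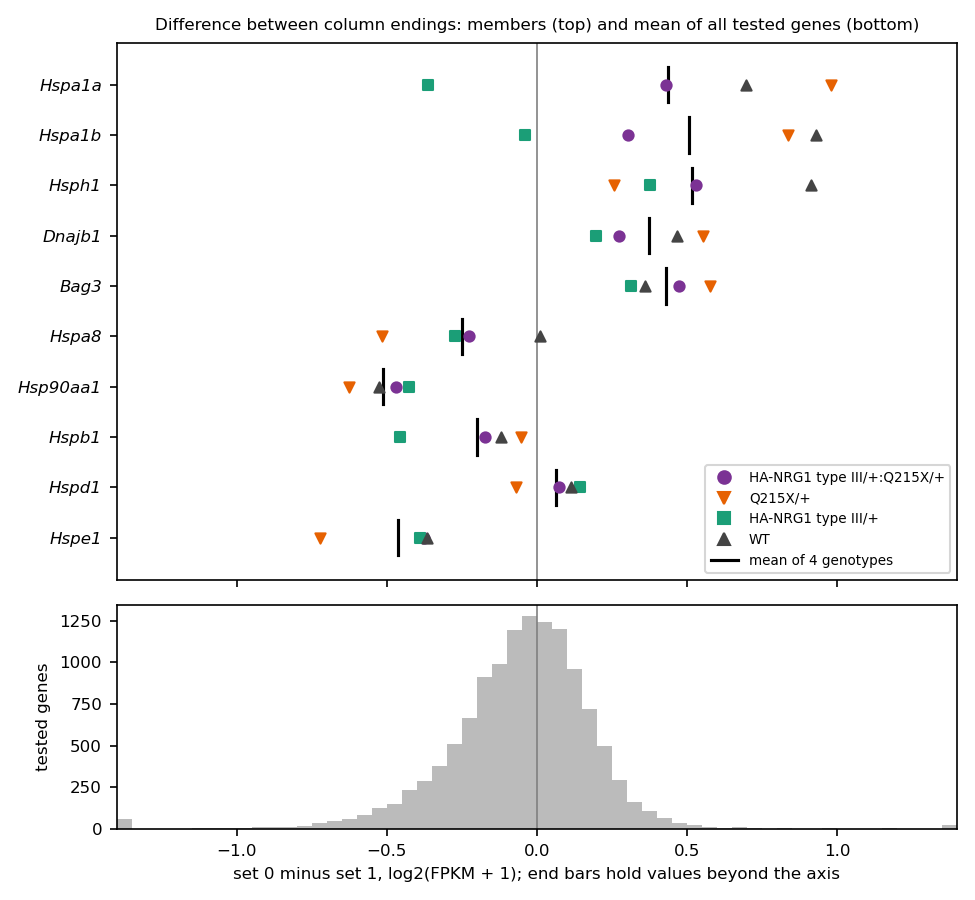
Top, log2(FPKM + 1) in set 0 minus set 1 for each member in each genotype (symbols) with the mean of the 4 (black line); bottom, a histogram of that mean over the tested genes, whose end bars gather values beyond the axis. Hsph1, Bag3 and Dnajb1 lie right of 0 and Hsp90aa1 and Hspe1 left of it in all 4 genotypes; the median size of the difference was 0.43 over the members and 0.13 over all genes.

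The sets differed in more than heat shock genes, and these values stand beside the members' as measured. A list of 16 clock and cold-shock genes, chosen after the set differences had been seen, was read in the same libraries, and its values are given as a description. The sets did not overlap for 12 of the 16 genes, while those of Clock, Cry1, Cry2 and Rbm3 overlapped. Over all tested genes, 12.2% lay wholly higher and 20.1% wholly lower in set 0. Dbp, a clock output factor, stood at 47.4 to 54.1 FPKM in set 0, against 5.83 to 11.6 in set 1. Per1, a repressor of the clock, stood at 31.1 to 42.8 FPKM in set 0, against 8.40 to 13.9 in set 1. Arntl, the clock activator BMAL1, ran the other way, at 3.28 to 3.63 FPKM in set 0, against 12.1 to 14.3 in set 1. Cirbp, a cold-inducible RNA binding protein, stood at 22.3 to 25.9 FPKM in set 0, against 32.1 to 42.9 in set 1, while Rbm3, another of that kind, overlapped, at 50.9 to 58.1 FPKM in set 0, against 39.0 to 53.7 in set 1. Cell type markers differed too. In every genotype the myelinating Schwann cell sum was higher and the endothelial sum lower in set 0. Skeletal muscle markers had a median of −1.515 log2 units (10 of 10 tested below 0, 0 called), though in WT their sum was higher in set 0. Smooth muscle markers had −0.17 (4 of 4 tested below 0, 0 called), though in Q215X/+ their sum was higher in set 0. Sums of red blood cell, adipocyte, macrophage and neuron markers ran both ways. The part of these genes and cells in the members' differences was not tested.

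**Figure D4:**
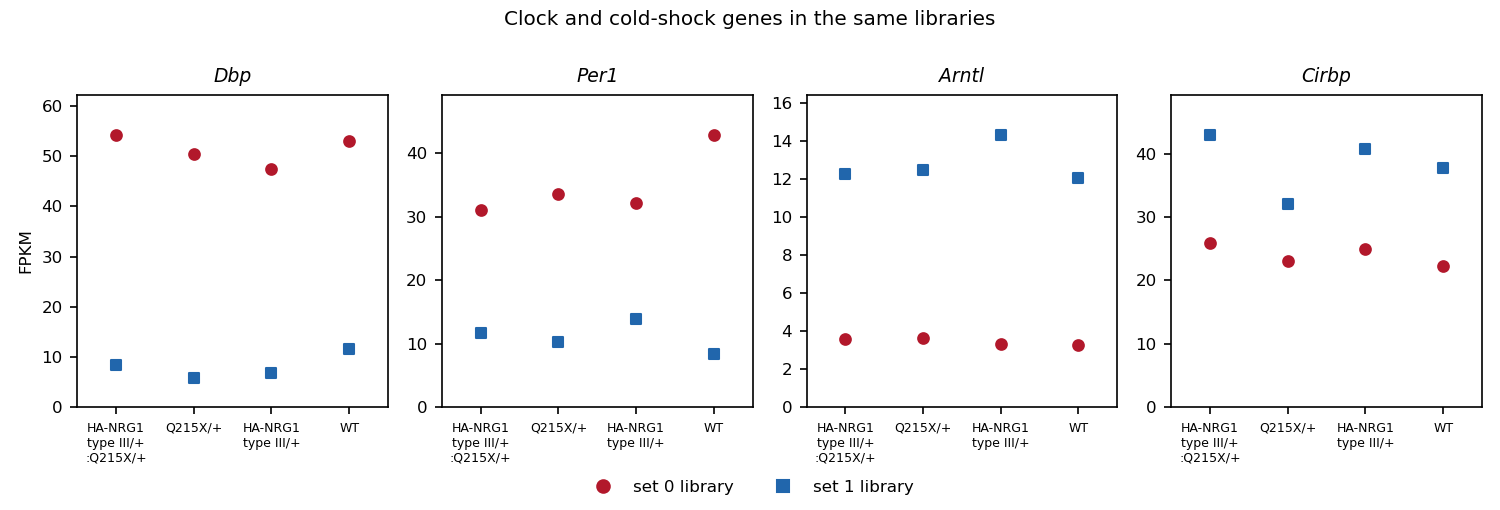
FPKM of Dbp, Per1, Arntl and Cirbp (y axes from 0) in the 4 genotypes, with red circles for set 0 and blue squares for set 1. The sets are apart in every genotype, with Dbp at 47.4 to 54.1 FPKM in set 0 and 5.83 to 11.6 in set 1.

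Transcript length moved with the set as well. Over 12438 genes with an annotated length, the median set difference was −0.20 log2 units among the 3112 genes with the shortest exon length and 0.06 among the 3110 with the longest. Genes within 20% of the length of Bag3 had a median of −0.11, beside 0.43 for Bag3, and those near Dnajb1 had −0.07, beside 0.37. Those near Hsp90aa1 had −0.04, beside −0.51. For Hspe1, whose exons span 1474 bases, genes of like length had −0.24, beside −0.46, and for Hspb1, with 1031 bases, they had −0.33, beside −0.20. Short RNA genes took 1.85% to 10.6% of total FPKM, and rescaling without them moved the median set difference of all genes up by 0.10. The share of calls that were higher in set 0 was 36.8% as deposited and 70.4% with that rescaling. Relative to that shift the directions of the 5 called members did not change, and Hspa1b and Hspd1 joined those higher in set 0, with adjusted p = 0.0189 and 0.0176.

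Other chaperone genes were taken from 9 lists, 69 genes in all, of which 66 passed the filter. Limma called 0 of them in each of the 5 genotype comparisons and in the interaction, with and without the set as a block; at an unadjusted p under 0.05 without the block, the count was 3 in the double genotype against Q215X/+, 2 in the double genotype against WT, 1 in HA-NRG1 type III/+ against WT, and 0 in Q215X/+ against WT, in the double genotype against HA-NRG1 type III/+ and in the interaction. Over all genes, 6.58%, 7.29% and 6.9% had such a p in the first 3 of these, so the shares of the chaperone genes were not above the background. Fkbp5, a cochaperone of HSP90 and a target of glucocorticoid receptor, had the largest differences. It stood at 6.78 and 4.19 FPKM in HA-NRG1 type III/+, against 14.0 and 15.8 in WT (log2 −1.32, SE 0.35, limma adjusted p = 0.386, and 0.111 with the set as a block). In the double genotype it stood at 6.05 and 9.52 FPKM, against 13.6 and 26.4 in Q215X/+ (log2 −1.21, SE 0.35, adjusted p = 0.473, and 0.144 with the block). The transgenic libraries lay below those without the transgene on both backgrounds, and neither difference passed the test. Dnaja4, an HSP40, had 22.4 and 24.3 FPKM in the double genotype, against 29.0 and 29.7 in WT (log2 −0.32, SE 0.10, adjusted p = 0.468, and 0.0787 with the block).

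**Figure D5:**
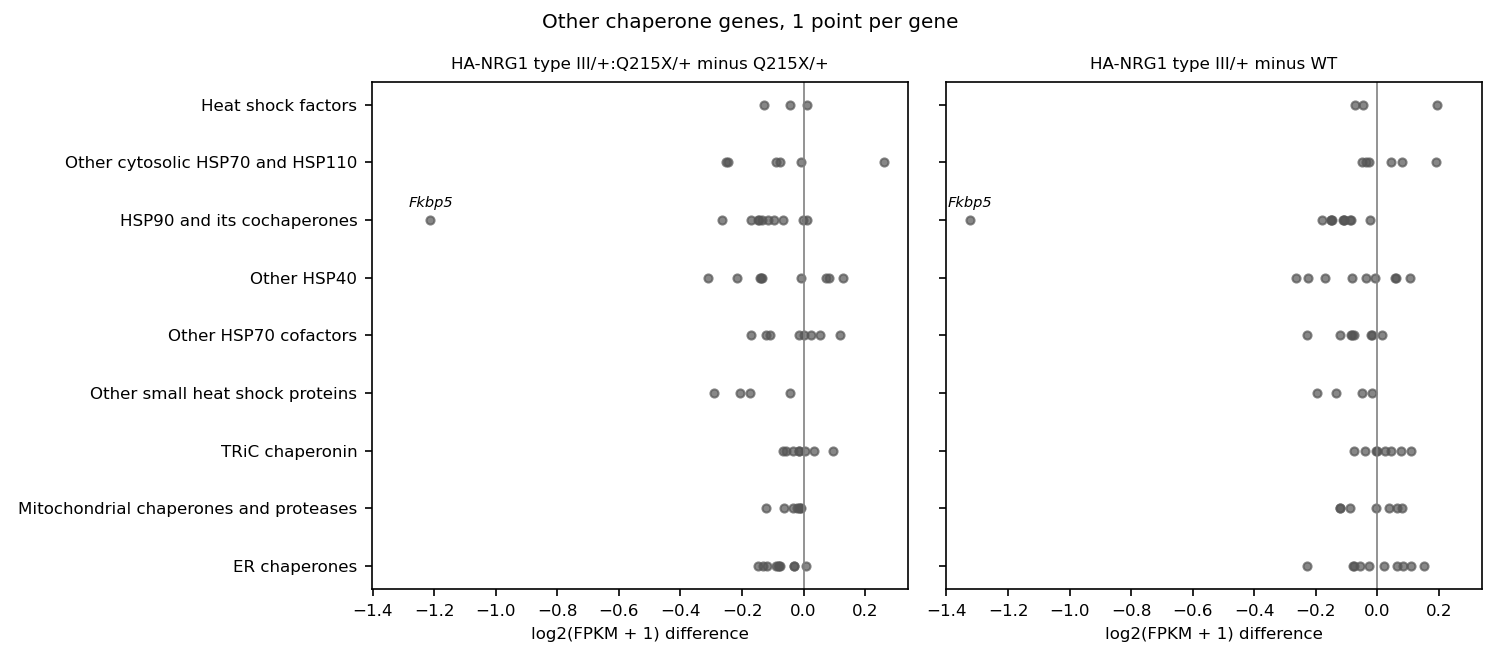
Log2(FPKM + 1) differences of 66 other chaperone genes, 1 point per gene and 1 row per list, for the double genotype minus Q215X/+ (left) and HA-NRG1 type III/+ minus WT (right). Points lie close to 0 except Fkbp5, at −1.21 and −1.32.

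Hsf1, the master regulator of the response, had 11.4 and 12.8 FPKM in the double genotype, 11.1 and 14.1 in Q215X/+, 12.4 and 11.7 in HA-NRG1 type III/+ and 12.6 and 12.8 in WT; it was called in no comparison, and the pair HA-NRG1 type III/+ and WT was the only one without overlap. Hsbp1, which binds and restrains heat shock factor 1, had a set difference of −0.28 (SE 0.04, adjusted p = 0.00511), at 169 to 184 FPKM in set 0, against 204 to 230 in set 1. Of the 66 other chaperone genes 3 were higher and 13 lower in set 0, beside 12.9% higher and 22.1% lower over all genes, so the shares were not above the background. The higher ones were Hspa4 (0.15), an HSP110, Ptges3 (0.24), the HSP90 cochaperone p23, and Canx (0.27), a lectin chaperone of the endoplasmic reticulum. Among the lower ones were Hspb2 (−0.60, SE 0.04, adjusted p = 0.00117), a small heat shock protein of muscle, Ahsa1 (−0.26), which drives ATP hydrolysis by HSP90, and Stub1 (−0.31), the ubiquitin ligase CHIP. Of 9 tested immediate early genes, 1 was higher (Jun, 0.25) and 5 were lower in set 0, among them Ier3 (−0.30) and Btg2 (−0.40). The same background of 12.9% and 22.1% holds for these 9, and its balance between higher and lower depends on the rescaling without short RNA genes described above.

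Genes whose levels ran most like those of 4 members were sought over the 8 libraries among 11722 genes, by Pearson correlation of log2(FPKM + 1), without other members, predicted, short RNA or sex-linked genes. The 8 points share the split into sets, so these values are a description. Nearest to Hspa1b were Mga (r = 0.97), Nipbl (0.97) and Eif4ebp2 (0.96), and nearest to Hsph1 were Fgfr1 (0.99), Hspg2 (0.98) and Ubap2l (0.98). Nearest to Hspd1 were Atp1b1 (0.95), Zmynd8 (0.95) and Hsp90ab1 (0.94), the constitutive HSP90, which stood at 433 and 409.5 FPKM in the double genotype, 447 and 487 in Q215X/+, 407 and 396 in HA-NRG1 type III/+ and 452 and 415 in WT. Nearest to Hspb1 were Hexim1 (0.96), Pglyrp1 (0.95) and Plcb3 (0.95). Likeness in pattern was not likeness in size: Nipbl ran from 10.9 to 12.7 FPKM, while Hspa1b ran from 4.15 to 10.1.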

How the data were processed

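Sciatic nerve RNA was poly A selected and made into TruSeq libraries, per the labels' protocols. The authors deposited 1 table of FPKM per gene and library; TopHat2 2.0.9, Cufflinks 2.2.0 and mm10 are listed per the submitters' processing notes, and their roles, the annotation, strand handling and filters are not stated by those sources. An empty field that follows the symbol on each line was dropped. Columns were joined to genotypes by name stem; the stem of the transgene is an abbreviation, assigned to the 1 genotype left unnamed by the other stems. Libraries could not be matched to replicate numbers, so the column endings 0 and 1 name set 0 and set 1.

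Values were analysed as log2(FPKM + 1) with limma 3.58.1 in R 4.3.3 (eBayes with trend), on genes averaging 1 FPKM or more, as 4 group means with 4 residual degrees of freedom. P-values were Benjamini-Hochberg adjusted over all 12530 tested genes and called under 0.05. The correlation across genes of set differences between genotypes was 0.118 to 0.304 in all 6 pairs, so the sets were taken as pairs on the strength of the data alone; the fit with the set as replicate block has 3 residual degrees of freedom. The script was tested on simulated data. Annotation came from GENCODE M21, and promoter windows from RefSeq (GRCm38.p6). Members and lists were chosen with earlier results of these data known; all 10 members are named, in other lists up to 3 genes of smallest p in a comparison, and Hsp90ab1, Hsf1, Fkbp5 and Dnaja4 are given in other places after their values were seen. Marker lists, alternative pseudocount (0.1), no filter, median scaling, rescaling without short RNA genes, a sex term, summing Hspa1a and Hspa1b, and leaving out each library were also run.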

Additional observations from a re-analysis of the deposited data

How the results depend on the processing

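Under all 16 alternatives, limma called 0 of the 10 members in each of the 5 genotype comparisons and in the interaction (96 counts); the smallest adjusted p of a member was 0.202, for Hspb1 in HA-NRG1 type III/+ against WT with the replicate block. The replicate block gave 0 calls. Every genotype has a library in each set, so the block cannot change a genotype difference, only its standard error and p-value. The median differences of the members were thus 0.08 for Q215X/+ against WT and −0.09 for HA-NRG1 type III/+ against WT in both fits. For the double genotype they were −0.15 against Q215X/+, 0.06 against HA-NRG1 type III/+ and −0.08 against WT. Calls over all genes moved to 2.11%, 1.72% and 2.39% in the transgene comparisons and the double genotype against WT, beside 0.0638%, 0.0399% and 0.112%.

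The medians are not stable. With a sex term, that of Q215X/+ against WT was 0.299 and that of the double genotype against Q215X/+ −0.403. Only HA-NRG1 type III/+ has a library read as each sex, so this term is the difference between its set 0 and set 1 libraries. Both medians are thus shifted by a set difference and are not estimates free of sex. With the sex term and the replicate block, the median of the double genotype against HA-NRG1 type III/+ was −0.0269, and the sex term again rests on that genotype alone. Rescaled without short RNA genes, that of the double genotype against WT was −0.00275. Leaving out 1 library at a time, where the lone library of a group is assumed to vary like the other groups, gave −0.152 to 0.155 for Q215X/+ against WT, −0.146 to −0.0143 for the double genotype against Q215X/+ and −0.141 to 0.0156 for it against WT. The lowest value of Q215X/+ against WT came without the set 1 library of WT, and it was −0.107 without the set 0 library of Q215X/+. The leave-one-out fits had no set term, so the difference between the sets enters the comparisons of the genotype that lost a library. What single libraries add beyond that was not tested. Of 795 alternative values of the 50 member differences, 103 had the opposite sign. They fell on 46 of the 50 differences, up to a size of 0.5 (Hspa1a in HA-NRG1 type III/+ against WT). Many of the 795 could not change, so the share of 103 is no measure of how stable the signs are. The replicate block, testing without the filter and leaving out a library outside the comparison keep an estimate as it was. Summing Hspa1a and Hspa1b keeps those of the other members.

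Members higher in set 0 numbered 3, 4 with median scaling or a pseudocount of 0.1, where Hspa1b passed (adjusted p = 0.0477 and 0.0459), and 5 with the sex term and the replicate block or without short RNA genes; leaving out 1 library gave 2 to 5. Leaving out either library of a genotype is a single check of the set term, since the lone library left adds nothing to it. For the double genotype Hsph1 was then 0.51 and lost its call. For HA-NRG1 type III/+ Hspa1a was 0.70 and Hspa1b 0.69, the same estimates as with the sex term and the replicate block. For WT, Hspa8 was −0.34. No set difference changed sign. FPKM values carry no read counts, so the low level of Hspa1a and Hspa1b limits precision by an unknown amount.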
